A study of Mus musculus with 7 samples.

Results

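Edil3, Mfge8 and 8 integrin subunit genes were followed in RNA-sequencing data from dorsal root ganglia of the mouse, which house the cell bodies of the sensory neurons. The 10 genes (Edil3, Mfge8, Itgav, Itgb3, Itgb5, Itgb1, Itga4, Itga5, Itga7 and Itga9) were taken by symbol from a table of 54309 genes, and each symbol matched 1 row. The set was assembled around Edil3 because Edil3 differed strongly between the study's groups, so the group differences of these 10 genes are described here and not tested. The study compared ganglia of the lower lumbar level from male C57BL/6 mice aged 6 to 8 weeks whose sciatic nerve had been injured at Zeitgeber time 20 (ZT20, in the dark phase, 4 samples) or at ZT8 (in the light phase, 3 samples). Zeitgeber time counts hours from lights on. In both groups the ganglia were taken 72 h after injury, hence at the same Zeitgeber time as the injury, dissociated with dispase, collagenase and papain, and enriched for neurons on an albumin gradient. All 7 samples came from injured mice, and the time of injury and the time of dissection cannot be told apart.

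Integrins are heterodimers of an alpha and a beta subunit that span the cell membrane and tie the extracellular matrix to the actin cytoskeleton. In sensory neurons they are the receptors through which a regrowing axon grips laminin, fibronectin and related matrix proteins, and the alpha subunit largely sets which ligand is bound. Edil3, also called Del-1, and its paralog Mfge8, also called lactadherin, are secreted proteins that share the same layout: EGF-like repeats, in which an Arg-Gly-Asp motif is recognised by integrins of the alpha v family, followed by a pair of discoidin domains that bind phosphatidylserine on membranes. Both can therefore bridge a membrane or matrix surface to alpha v beta 3 or alpha v beta 5 integrin, and Mfge8 is best known for marking dying cells for engulfment.

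The integrin-binding codons are shown for both ligands because these codons link Edil3 and Mfge8 to the integrin genes described with them. The sequences are the coding strand of GENCODE M21 transcripts (build GRCm38, whereas the table was made on GRCm39), 5′ to 3′, with the 9 bases of the in-frame Arg-Gly-Asp codons in capitals and 24 bases on either side.
Edil3: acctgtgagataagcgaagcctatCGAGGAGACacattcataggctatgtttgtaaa
Mfge8: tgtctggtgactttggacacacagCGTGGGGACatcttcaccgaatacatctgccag
The Edil3 stretch lies on the plus strand at chr13:89042467-89042523 within 1 coding exon, and the Mfge8 stretch on the minus strand at chr7:79145284-79145340, also within 1 coding exon. The codons were found once in the coding sequence of each of the 3 protein-coding Edil3 transcripts and of both such Mfge8 transcripts. Over the 57 aligned bases 26 were identical (45.6%). In GENCODE M21 neither gene overlaps another annotated gene, and the same holds for Itgb1, Itgb3 and Itgb5. Itga7 overlaps 2 genes, 1 of them on its own strand, Itga5 overlaps a microRNA gene on its own strand, and Itgav, Itga4 and Itga9 overlap genes on the opposite strand, so the assignment of reads to these 5 genes is less certain.

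Some libraries stood apart or went against their labels. All mice are labelled male, but the summed level of 4 Y-linked genes was 0.0162 and 0.00868 TPM (a transcript's share of its library per length, scaled to the same sum in every library) in ZT20 replicates 3 and 4, against 33.1 to 84.6 TPM in the other 5 libraries. Xist, the transcript of the inactive X chromosome, was at 1.08 to 2.30 TPM in ZT20 replicates 2 to 4 and at or under 0.00467 TPM elsewhere. ZT8 replicate 2 had 18297 genes above 0 TPM, against 22541 to 25238 in the other libraries. Summed neuron markers (13 genes) were at 23640 to 29500 TPM at ZT20 and 19610 to 25450 TPM at ZT8, whereas summed satellite glia markers (8 genes) were at 7584 to 9280 TPM and 12890 to 15600 TPM, without overlap. Summed plasma cell markers (5 genes) did not overlap either, at 267 to 485 TPM at ZT20 and 496 to 933 TPM at ZT8, although Mzb1 and Tnfrsf17 were listed at 0 in at least 1 library. Library identifiers follow 1 naming scheme per group, so the scheme and the group cannot be told apart.

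Edil3 was high in every ZT20 library and low in every ZT8 library. Its level was 102, 66.8, 90.1 and 85.6 TPM in ZT20 replicates 1 to 4 and 11.9, 9.04 and 6.26 TPM in ZT8 replicates 1 to 3. The groups did not overlap, and the lowest ZT20 library stood 5.63 times above the highest ZT8 library. At ZT20 the mean was 86.1 ± 14.6 TPM (SD, n = 4), against 9.06 ± 2.81 TPM (SD, n = 3) in the ZT8 group, a 9.51-fold difference of the mean TPM. On the log2(TPM + 1) scale, which understates folds of genes with low values, strongly so near 1 TPM, the difference was 3.14 with a standard error of 0.22. Among the 14800 genes that averaged 1 TPM or more this was the positive difference of rank 12, and of rank 8 among the 8106 that averaged 10 TPM or more. These are the values for which the genes were chosen.

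**Figure D1:**
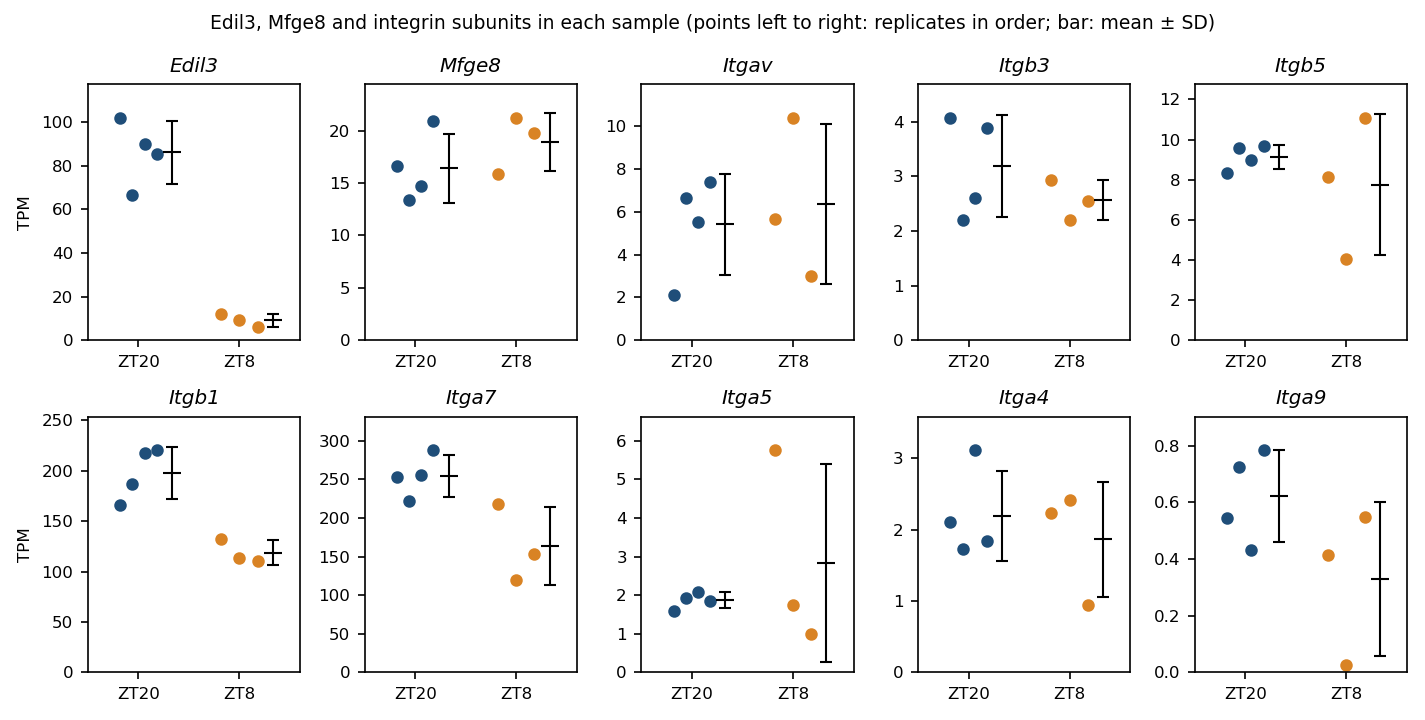
TPM of the 10 genes in each library, with ZT20 libraries in blue and ZT8 libraries in orange, replicates in order from left to right, and the mean ± SD in black; each axis starts at 0. Edil3 lies at 66.8 to 102 TPM at ZT20 and 6.26 to 11.9 TPM at ZT8, Itgb1 and Itga7 are also separated, and the other 7 genes overlap.

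Ranks and ratios within a library express the same Edil3 values in other units and add no separate evidence. Ranked by level among the 54309 genes of a library, Edil3 stood between places 1923 and 2709 at ZT20 and between 7296 and 8796 at ZT8. Relative to 1000 TPM of summed neuron markers, Edil3 amounted to 3.46, 2.83, 3.36 and 3.24 TPM in the ZT20 libraries and to 0.468, 0.461 and 0.246 TPM in the ZT8 libraries. The ratio of Edil3 to its paralog Mfge8 was 4.09 to 6.15 at ZT20 and 0.317 to 0.749 at ZT8, so which of the paralogs was more abundant differed between the groups. Without ZT20 replicates 3 and 4, whose Y-linked transcripts go against the label, the log2 difference of Edil3 was 3.09, and over the fits that left out any 1 library it ran from 2.92 to 3.34. Edil3 is known from endothelial cells. The endothelial markers (7 genes) summed to 4.78 to 7.20 TPM at ZT20 and 2.06 to 6.63 TPM at ZT8, and Cdh5, Tek and Emcn were listed at 0 in at least 1 library. In bulk samples such as these, a change in the number of cells of a type and a change in RNA per cell cannot be told apart.

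Mfge8, the second bridging ligand, overlapped between the groups. The ZT20 libraries held 16.6, 13.4, 14.7 and 20.9 TPM of it and the ZT8 libraries 15.9, 21.2 and 19.7 TPM. The log2 difference of −0.21 (standard error 0.19) was close to its error on the reported scale. It was −0.44 under median-ratio scaling and −0.48 after quantile normalization, each with a standard error of 0.2. It was negative under all 17 alternatives, from −0.48 to −0.12.

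The subunits of the alpha v receptors for these ligands were low and overlapped between the groups. Itgav, the alpha v subunit, varied more within each group than between them: it was at 2.09, 6.66, 5.52 and 7.42 TPM in the ZT20 libraries and at 5.65, 10.4 and 3.02 TPM in the ZT8 libraries. Its coefficient of variation was 43.4% at ZT20 and 58.9% at ZT8, and its log2 difference was −0.16 (standard error 0.44). Itgb3, the partner subunit of the alpha v beta 3 receptor, was at 4.07, 2.20, 2.60 and 3.90 TPM and at 2.93, 2.20 and 2.55 TPM. Its log2 difference was 0.21 (standard error 0.25). Itgb5, the partner in alpha v beta 5, was at 8.33, 9.56, 9.003 and 9.66 TPM at ZT20, the narrowest range of the 10 genes there (coefficient of variation 6.67%). At ZT8 it was at 8.11, 4.07 and 11.1 TPM, so the ZT8 libraries lay on both sides of the ZT20 range. Its log2 difference was 0.30 (standard error 0.29). In every library Itgb5 exceeded Itgb3, by 1.85 to 4.34 times. The signs of these differences were not stable: Itgav turned positive in 3 of 17 alternatives and ran from −0.88 to 1.09 over the 17, Itgb3 turned negative in 3 of 16 and Itgb5 negative in 5 of 17.

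Itgb1, the beta 1 subunit shared by the laminin, fibronectin and collagen receptors, reached 166, 187, 217 and 220 TPM in the 4 ZT20 libraries and 133, 113 and 111 TPM in the 3 ZT8 libraries. All ZT20 libraries lay above all ZT8 libraries, and the mean TPM was 1.66-fold higher at ZT20 (198 ± 26.1, SD, n = 4, against 119 ± 12.1, SD, n = 3). The log2 difference was 0.72 with a standard error of 0.14. It was 0.48 under median-ratio scaling, 0.44 after each library's trend with transcript length and GC content was removed, and 0.57 without ZT20 replicates 3 and 4.

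Itga7, which pairs with beta 1 to form the laminin receptor alpha 7 beta 1 known from regenerating peripheral axons, was at 253, 222, 256 and 288 TPM at ZT20 and at 218, 120 and 153 TPM at ZT8. The groups were separated by a narrow margin, since the lowest ZT20 library was 1.02 times the highest ZT8 library. The mean TPM was 255 ± 26.9 (SD, n = 4) and 164 ± 50.1 (SD, n = 3), a 1.56-fold difference, and the log2 difference was 0.67 with a standard error of 0.20. After the length and GC correction it was 0.21, under median-ratio scaling 0.42 with overlapping ranges, and without ZT8 replicate 2 it was 0.47. Without ZT20 replicates 3 and 4 it was 0.58. Per 1000 TPM of summed neuron markers the group ranges of both subunits overlapped: Itga7 was at 8.58 to 10.9 TPM and 6.02 to 8.59 TPM, and Itgb1 at 5.62 to 8.34 TPM and 4.35 to 5.76 TPM. The ratio of Itga7 to Itgb1 within a library stayed between 1.06 and 1.64 and overlapped between the groups.

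The other beta 1 partners of the set were far less abundant. Itga5, the fibronectin receptor subunit, was at 1.597, 1.93, 2.09 and 1.84 TPM at ZT20 and at 5.76, 1.75 and 0.992 TPM at ZT8. ZT8 replicate 1 stood alone at the high end, and the log2 difference of −0.22 became 0.29 without it. Itga4, which pairs with beta 1 to bind VCAM-1 and fibronectin, was at 2.10, 1.73, 3.12 and 1.85 TPM at ZT20 and at 2.23, 2.42 and 0.946 TPM at ZT8. Its log2 difference was 0.18 (standard error 0.30) with overlapping ranges. Itga9, whose ligands include tenascin-C and whose forced expression is known to promote sensory axon regrowth, was at 0.546, 0.725, 0.433 and 0.784 TPM at ZT20 and at 0.415, 0.0254 and 0.548 TPM at ZT8. It was the only gene of the set below the minimum mean of 1 TPM and was left out of the fit.

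Of the 10 genes, the 9 that averaged 1 TPM or more were in the fit across genes, and in 3 of them (Edil3, Itgb1 and Itga7) the group ranges did not overlap, with ZT20 above ZT8 in each. Over all 14800 genes the ranges did not overlap for 33.2%: ZT20 lay above ZT8 for 24.5% and below it for 8.72%. Nothing is read from this count, since the set was chosen on the same contrast. The median log2 difference was 0.21 over the 9 genes and 0.23 over all genes fitted. The difference moves with transcript length in these libraries: of 10 equal length classes, the class of 5000 to 6488 nt (longest transcript), which holds Edil3 (5317 nt) and Itgb3 (5784 nt), had a median of 0.56, and the class of 3647 to 4234 nt, which holds Itgb1 (3815 nt) and Itga7 (4020 nt), a median of 0.36. Within their classes Edil3 exceeded 99.9% of the genes, Itgb1 79.0%, Itga7 75.0% and Itgb3 25.2%. The Edil3 share restates the difference for which the set was chosen. In their own classes Itgb5 exceeded 55.4%, Mfge8 24.3%, Itga4 19.7%, Itga5 9.1% and Itgav 6.6%. After the length and GC correction the difference of Edil3 was 2.74.

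**Figure D2:**
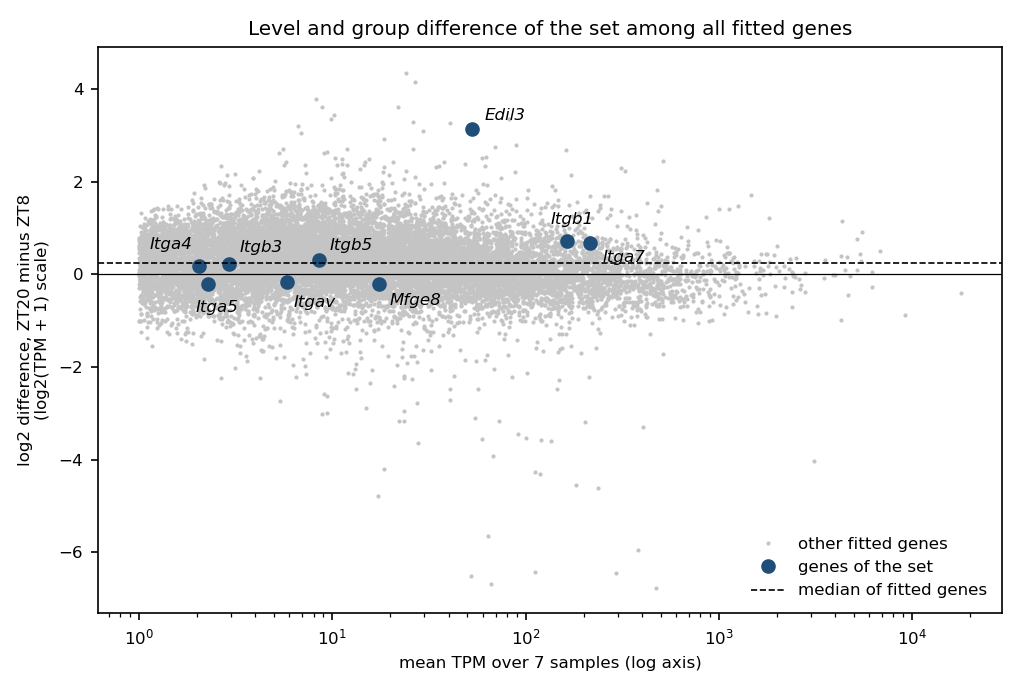
Log2 difference (ZT20 minus ZT8, on the log2(TPM + 1) scale) against mean TPM over 7 samples on a log axis, for all 14800 genes fitted (grey) and the 9 fitted genes of the set (blue); the dashed line is the median of all genes, 0.23. Edil3 lies at 3.14, Itgb1 at 0.72, Itga7 at 0.67 and the other 6 between −0.22 and 0.30.

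**Figure D3:**
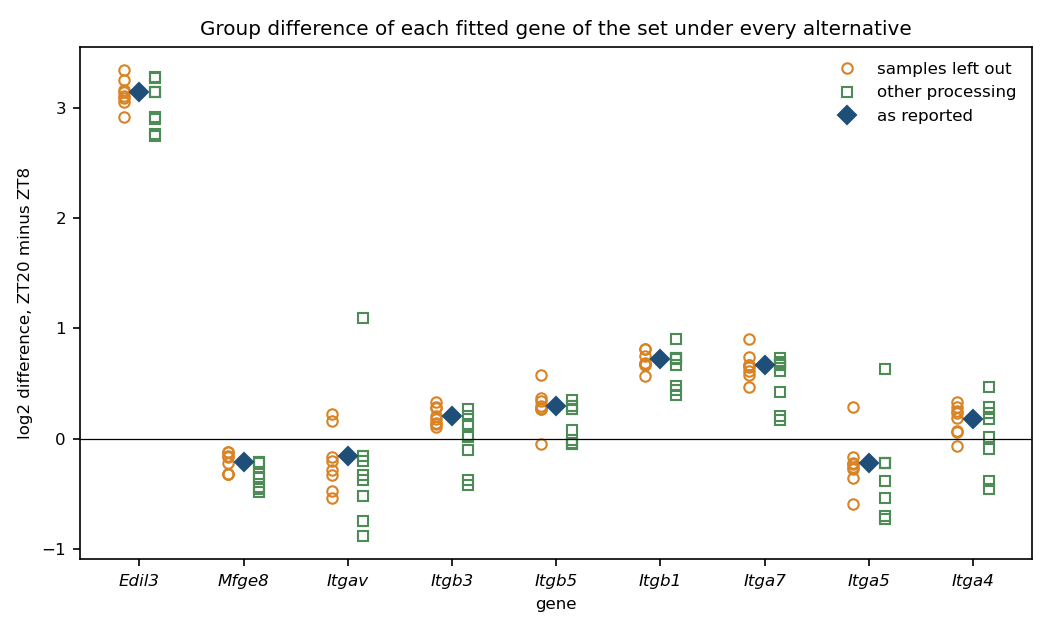
Log2 difference of the 9 fitted genes as reported (diamonds), with libraries left out (circles) and under other processing (squares). Edil3 ranges from 2.74 to 3.34, Itgb1 from 0.40 to 0.90, Itga7 from 0.17 to 0.90 and Mfge8 from −0.48 to −0.12, whereas Itgav, Itgb3, Itgb5, Itga4 and Itga5 cross 0.

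Levels of the genes other than Edil3 were ordered by their mean log2(TPM + 1), a per-length scale, and each was compared with its neighbour in the order by a two-sided exact permutation test that exchanged the gene labels within each of the 7 libraries. Itga7 was the most abundant and exceeded Itgb1 in 7 of 7 libraries, by 0.39 ± 0.22 on the log2 scale (SD, n = 7, exact p = 0.0156, adjusted over 8 pairs 0.0312). Itgb1 exceeded Mfge8 by 3.12, Mfge8 exceeded Itgb5 by 0.98, and Itga4 exceeded Itga9 by 1.02, each in 7 of 7 libraries with exact p = 0.0156, the smallest this test can give, and an adjusted p of 0.0312. The order from Itgb5 over Itgav, Itgb3 and Itga5 to Itga4 was not resolved beyond the spread between libraries: the 4 neighbouring differences ran from 0.03 to 0.71, with adjusted exact p-values from 0.075 to 0.906. Edil3 stood between Itgb1 and Mfge8 in each ZT20 library and below Mfge8 in each ZT8 library.

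Across the whole integrin family of 26 subunit genes, Itga7 and Itgb1 dominated. Itga7 made up 73.3% to 82.5% of the summed TPM of 18 alpha subunits and Itgb1 made up 74.5% to 86.4% of that of 8 beta subunits, with overlapping ranges between the groups for both shares. Of the 18 subunits outside the set, 13 were fitted, and 2 rose at ZT20 by limma with Benjamini-Hochberg adjustment over all 14800 genes (15.4%, against 16.4% of all genes). Itga3, a laminin receptor subunit, was at 20.7, 15.95, 26.8 and 22.1 TPM at ZT20 and at 14.4, 3.76 and 9.18 TPM at ZT8, a log2 difference of 1.28 ± 0.37 (SE, limma adjusted p = 0.0486). Itgam, the CD11b subunit of myeloid cells, was at 5.67, 2.24, 2.74 and 3.74 TPM and at 1.87, 0 and 0.520 TPM, a difference of 1.44 ± 0.41 (SE, limma adjusted p = 0.0461). Itgam averaged under 1 TPM at ZT8 and entered the fit only through the ZT20 libraries, so its call is not independent of the filter. With a pseudocount of 0.1 the difference of Itgam was 2.81 and did not pass (limma adjusted p = 0.0766). In both Itga3 and Itgam all 4 ZT20 values lay above all 3 ZT8 values. The leukocyte beta subunit that pairs with Itgam, Itgb2 (18.3 ± 6.70 against 10.5 ± 8.84 TPM, SD), and Itgb8 (11.3 ± 3.14 against 5.64 ± 1.77 TPM, SD) missed the threshold (limma adjusted p = 0.191 and 0.0547). The median difference of the 13 genes was 0.68, against 0.23 over all genes. It is the value of Itgb6. Itgb6, Itga2, Itga11 and Itgam averaged under 1 TPM at ZT8 and entered the fit only through the ZT20 libraries. Of the subunits below the filter, Itga8, Itgad and Itgax averaged higher at ZT8, and Itga10 and Itgae higher at ZT20. The median is therefore not independent of the filter. The calls of Itga3 and Itgam were both close to the threshold. The difference of Itga3 was 0.81 without ZT8 replicate 2 and 0.71 after the length and GC correction. None of the 13 passed after quantile normalization, the length and GC correction or median-ratio scaling, and 0 passed when any 1 of the ZT20 libraries or ZT8 replicate 3 was left out. In the fits that left out a ZT20 library or ZT8 replicate 3, 4.9% to 12.5% of all genes were called. Without ZT8 replicate 1 there were 3 called subunits (15.8% of all genes) and without ZT8 replicate 2 there was 1, Itgb8 (20.6%). Summed macrophage markers (10 genes) were at 168 to 238 TPM at ZT20 and 220 to 528 TPM at ZT8, with Mrc1 called higher and C1qa lower at ZT20, and their part in the Itgam difference was not tested.

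**Figure D4:**
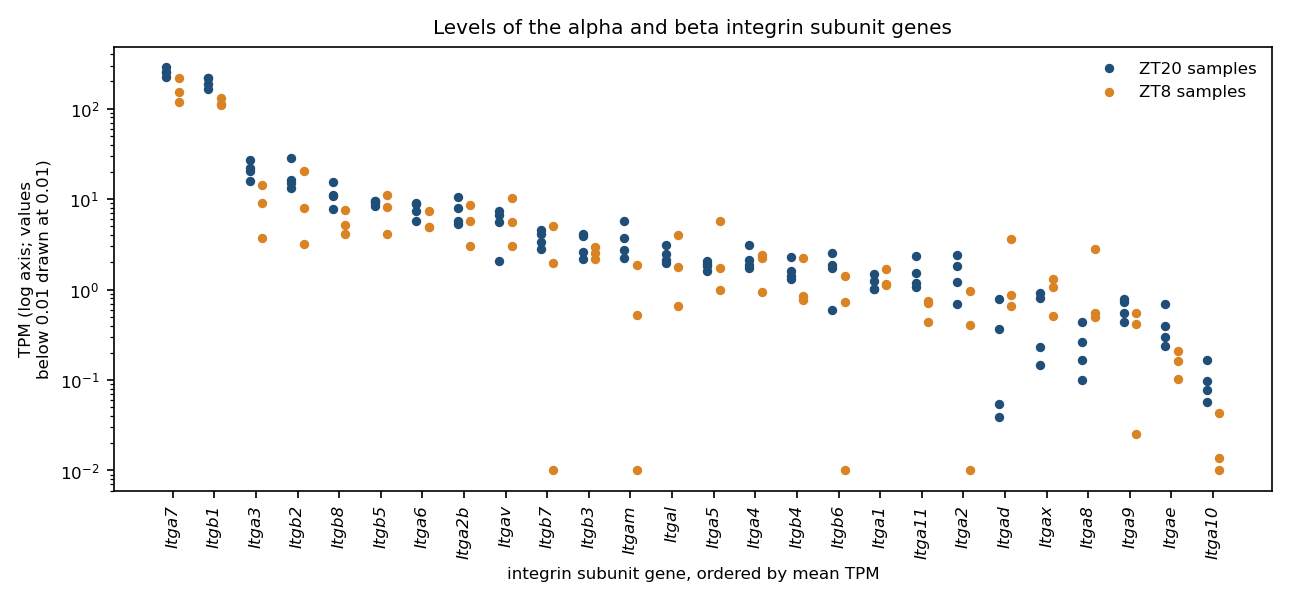
TPM of the 26 integrin subunit genes in each library on a log axis, ordered by mean TPM, with ZT20 libraries in blue and ZT8 libraries in orange; values under 0.01 TPM are drawn at 0.01. Itga7 and Itgb1 lie above 100 TPM in every library, and all other subunits lie below 30 TPM.

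Of 33 listed integrin ligands of the matrix and cell surface, 22 were fitted and 1 passed (4.55%, against 16.4% of all genes), with a median log2 difference of 0.15. That gene was Lama5, the laminin alpha 5 chain, at 2.17, 2.23, 3.33 and 1.76 TPM at ZT20 and at 0.526, 0.0560 and 0.203 TPM at ZT8, a difference of 1.42 ± 0.28 (SE, limma adjusted p = 0.0145). It entered the fit only through the ZT20 libraries, since it averaged under 1 TPM at ZT8, and the size depends on the scale: the mean TPM was 9.07-fold higher at ZT20, and the log2 difference was 2.96 with a pseudocount of 0.1 (limma adjusted p = 0.023) and 0.55 after the length and GC correction (limma adjusted p = 0.145). Without ZT20 replicate 3 the limma adjusted p was 0.0595. The most abundant ligand was Spp1, or osteopontin, which carries an Arg-Gly-Asp motif of its own. Its mean was 445 ± 87.7 TPM over the 4 ZT20 libraries and 521 ± 302 TPM over the 3 ZT8 libraries (SD), and its log2 difference of −0.06 did not pass (limma adjusted p = 0.918). Ccn1, a matrix-associated ligand of alpha v integrins, averaged 30.8 ± 15.1 and 30.7 ± 6.13 TPM, and the laminin chain Lamb1 averaged 14.3 ± 3.72 and 11.04 ± 2.38 TPM (ZT20 and ZT8, SD), with a limma adjusted p of 0.867 for Ccn1 and 0.335 for Lamb1. The signs of Spp1, Ccn1 and Lamb1 changed under some alternatives. Postn (periostin), singled out after its values were seen, was at 8.46 TPM at ZT20 and 13.3 TPM at ZT8 on average and did not pass (limma adjusted p = 0.0722). It was called lower after the length and GC correction, quantile normalization or median-ratio scaling. Without ZT8 replicate 1 there were 2 called ligands (15.8% of all genes were called in that fit). Without ZT8 replicate 2 there were 3 (20.6%), and without ZT20 replicate 3 there were 0 (4.9%).

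Of 32 listed genes for proteins that link integrin tails to actin or signal from them, 30 were fitted and 8 passed (26.7%, against 16.4% of all genes), 5 higher and 3 lower at ZT20, and the median log2 difference was 0.50. The genes that rose were Tns1 (tensin 1), Parvb (beta-parvin, a partner of integrin-linked kinase), Crkl (an adaptor downstream of focal adhesions), Tln2 (talin 2, which binds and activates beta tails) and Fermt2 (kindlin 2, the co-activator of talin). Tns1 was at 58.9, 43.9, 72.6 and 62.9 TPM at ZT20 and at 31.5, 23.2 and 27.3 TPM at ZT8, a log2 difference of 1.08 ± 0.19 (SE, limma adjusted p = 0.0106). Parvb and Crkl differed by 1.05 and 0.88 (limma adjusted p = 0.0241 for Parvb and 0.0259 for Crkl). Fermt2 was at 151, 138, 167 and 149 TPM and at 95.9, 96.6 and 111 TPM, a log2 difference of 0.58 ± 0.12 (SE, limma adjusted p = 0.0156). Tln2 differed by 0.61 (limma adjusted p = 0.0233).

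The 3 genes that fell were 2 small GTPases that activate integrins through talin and a protein that binds the beta 1 tail and opposes talin. Rap1b was at 41.7, 83.9, 64.7 and 56.9 TPM at ZT20 and at 90.4, 293 and 173 TPM at ZT8, a log2 difference of −1.46 ± 0.38 (SE, limma adjusted p = 0.0338). Without ZT8 replicate 2 the difference of Rap1b was −1.05 (limma adjusted p = 0.0565). Rap1a differed by −0.52 (limma adjusted p = 0.0369) and did not pass when any 1 library was left out. Itgb1bp1, or ICAP-1, was at 81.7, 122, 96.8 and 89.7 TPM and at 140, 154 and 154 TPM, a log2 difference of −0.62 ± 0.15 (SE, limma adjusted p = 0.0273). Ilk and Zyx, the most abundant of the list with Fermt2, averaged 163 ± 5.15 and 175 ± 37.2 TPM at ZT20 against 170 ± 14.01 and 144 ± 23.4 TPM at ZT8 (SD), with a limma adjusted p of 0.751 for Ilk and 0.367 for Zyx. With a covariate for the score of neuron markers minus that of other cell types, 0 of the 30 passed, as did 0 of all genes (limma, 1994 at an unadjusted p under 0.05). The differences of the 8 genes kept their signs in that fit, with larger standard errors: Tns1 differed by 0.88 ± 0.33, Fermt2 by 0.36 ± 0.18 and Rap1b by −1.24 ± 0.66 (SE). The summed satellite glia markers, given above, also differed between the groups without overlap, and their part in these calls was not tested beyond that fit. After the length and GC correction only the 3 lower genes passed (8.9% of all genes were called in that fit), and Tln2 had the opposite sign (−0.21). The differences there were 0.27 for Tns1, 0.65 for Parvb, 0.39 for Crkl and 0.37 for Fermt2. Under median-ratio scaling Parvb, Crkl and Tns1 passed as higher and the same 3 genes as lower (15.8% of all genes were called). The count was 2 without ZT20 replicate 1 (7.67% of all genes were called in that fit), 1 without ZT20 replicate 3 (4.9%), 1 without ZT20 replicate 4 (5.79%) and 4 without ZT8 replicate 3 (11.2%), and in none of these 4 fits did a lower gene pass. With 30 genes in the list, its share of calls was below that of all genes in the first 3 of these fits.

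Genes of phosphatidylserine recognition and engulfment, the pathway in which Mfge8 acts, gave 1 call among 16 fitted of 18 listed (6.25%, against 16.4% of all genes), with a median log2 difference of 0.51. Of these, Mertk and Stab1 averaged under 1 TPM at ZT8 and entered the fit only through the ZT20 libraries. Rac1, the GTPase that drives the engulfing membrane, was at 47.2, 54.0, 49.7 and 40.2 TPM at ZT20 and at 26.1, 31.0 and 37.5 TPM at ZT8, a log2 difference of 0.59 ± 0.17 (SE, limma adjusted p = 0.0445). The call was lost under median-ratio scaling, where the difference was 0.35, and whenever any 1 library other than ZT8 replicate 3 was left out. Without ZT8 replicate 1 the 1 call was Elmo1 (15.8% of all genes were called in that fit). Without ZT8 replicate 2 there were 3 calls, Adgrb1, Megf10 and Cd300lb (20.6% of all genes). Gas6, a soluble bridging ligand of the TAM receptors, averaged 169 ± 39.3 TPM at ZT20 against 126 ± 34.4 TPM at ZT8 (SD), and Elmo1 and Elmo2, partners of the Rac activator Dock1, differed by 0.66 and 0.39. None of these passed (limma adjusted p = 0.256, 0.0671 and 0.208).

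**Figure D5:**
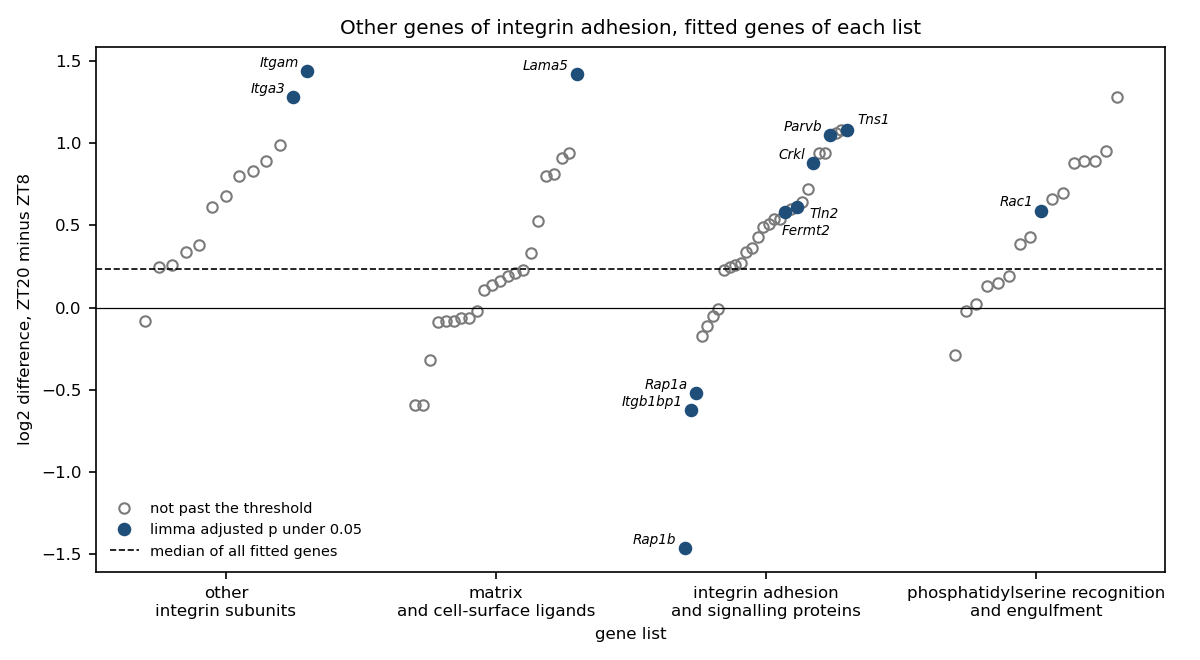
Log2 difference (ZT20 minus ZT8) of the fitted genes of 4 lists, each ordered by difference; filled points passed a limma adjusted p of 0.05, open points did not, and the dashed line is the median of all 14800 genes, 0.23. The adhesion and signalling list holds 5 called genes above 0 and 3 below, and the other lists hold 2, 1 and 1, all above 0.

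Over all 14800 genes 2433 passed the same threshold (16.4%), 1899 higher (12.8%) and 534 lower (3.61%) at ZT20, and 34.6% had an unadjusted limma p under 0.05. The split depends on scaling: it was 1088 higher and 1254 lower under median-ratio scaling, which moved the median difference of all genes from 0.23 to 0.019, and 540 higher and 779 lower after the length and GC correction. Without ZT20 replicates 3 and 4, limma called 0 genes, with 2378 at an unadjusted p under 0.05, and therefore 0 genes of the 4 lists. With 2 against 3 libraries the standard errors were larger. The group ranges of the called genes of the lists did not overlap, so leaving out libraries could not change their signs. The difference was 1.36 for Lama5, 1.51 for Itgam, 0.88 for Tns1, −1.47 for Rap1b and 0.68 for Rac1.

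Genes whose pattern was among the most like that of Edil3, by Pearson's r of log2(TPM + 1) over the 7 samples, were Unc13a, Rab11fip3, Trim36 and Rtn4rl1, with r from 0.996 to 0.998. The 7 points fall into the 2 groups, so these values mostly reflect the difference between them, and 430 of 14800 genes had r above 0.95. Rab11fip3 was at 4.55 and 0.421 TPM on average at ZT20 and ZT8, and Rtn4rl1, a homolog of the Nogo receptor, at 23.2 and 3.56 TPM. The 4 genes differed by 1.08 to 2.41 on the log2(TPM + 1) scale, which understates the difference of Rab11fip3 at its low level.

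Promoter sequence was available for 7 of the 10 genes (RefSeq, GRCm38.p6, 300 bases around the start), namely Mfge8, Itgav, Itgb1, Itgb5, Itga4, Itga5 and Itga9. The clock-related motifs searched on both strands were the E-box CACGTG, the D-box TTATGTAA, the RORE core TAGGTCA and the CRE TGACGTCA, and 0 of the 7 windows held any of them, against 7.15%, 0.94%, 2.61% and 1.79% of 32851 promoters of the same length. The AP-1 motif TGACTCA was found in 1 of the 7, that of Itga9, against 5.2% of all promoters. A match is a description of the letters only.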

How the data were processed

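RNA from 7 neuron-enriched samples was sequenced from low-input libraries, per the labels' protocols. The authors deposited TPM (reads divided by transcript length, scaled so that every library has the same sum), 1 column per sample, with 0 unused columns of per-sample values. Per the submitters' processing notes, FastQC 0.11.9, Trim Galore 0.6.6, Salmon 1.6.0, DESeq2 1.34.0 and GRCm39 were used; the role of each is not given in the sources used here. TPM holds no depth, so counting error is unknown, and nothing says that samples came from separate animals, so p-values measure only the spread between these samples.

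Values were analysed as log2(TPM + 1). The 14800 genes that averaged 1 TPM or more were fitted with limma 3.58.1 in R 4.3.3 (intensity trend, no covariates, two-sided, Benjamini-Hochberg over all 14800, threshold 0.05); exact tests used scipy 1.17.1, tables pandas 2.3.3 and figures matplotlib 3.10.9 (Python 3.11.15). The fit was tested on simulated data. Length and GC content came from GENCODE M21 for 99.6% of fitted genes (loess, span 0.3). The members and lists were chosen with earlier results of these data known. Named genes were the 10 of the set, and in each list up to 4 called genes with the largest differences in each direction and the 3 most abundant; the genes most like Edil3 were the 5 with the highest Pearson r, of which 1 is not reported here. Alternatives were quantile normalization, median-ratio scaling, the length and GC correction, a replicate block, both of these together, a covariate (the score of neuron markers minus that of the other cell types' markers), a pseudocount of 0.1, a filter at 5 TPM or none, each library left out, and removal of the 2 libraries with summed Y-linked TPM under 1. Other scales for range overlap and for the order of levels were added after seeing the data.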

Additional observations from a re-analysis of the deposited data

How the results depend on the processing

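The log2 difference of Edil3, for which the set was chosen, was positive under all 17 alternatives. Its group ranges did not overlap, so leaving out libraries could not change the sign. Only the length and GC correction (2.74) and the replicate block with that correction (2.76) moved the difference by more than the replicate spread. It ran from 2.92 to 3.34 over the fits that left out 1 library. The number of the set's genes with separate group ranges was 3 as reported and 2 under median-ratio scaling. With length and GC corrected, the 3 genes were Edil3, Itgb1 and Itgb3, the last lower at ZT20. The other scales tried for the order of levels (a pseudocount of 0.1, median-ratio scaling and quantile normalization) cannot change which gene is higher within a library, so the 4 called pairs (3 under quantile normalization, which lacks Itga9) stay called by construction. The order was not recomputed with libraries left out.

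The number of genes past the limma threshold was 1178 without a filter (978 higher, 200 lower), 1319 after the length and GC correction (540 higher), 1174 with the replicate block (891 higher, 283 lower) and 374 with the replicate block and that correction (178 higher, 196 lower). The split was 1088 against 1254 genes (higher against lower) under median-ratio scaling and 1023 against 814 after quantile normalization. With the marker score as covariate limma called 0 genes in either direction (1994 at an unadjusted p under 0.05), and without the 2 libraries low in Y-linked transcripts also 0 (2378). Leaving out 1 library gave 723 to 3047 genes, 620 to 2375 higher and 103 to 672 lower.

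The replicate numbers occur in both groups but nothing ties them to shared animals, and same-numbered samples did not deviate together (r of deviations −0.0141, 0.153 and 0.083), so the block was an alternative only. It left 4 called adhesion and signalling genes, and 0 in each of the other 3 lists. Other integrin subunits past the threshold numbered 0 to 1 under every alternative that kept all libraries, 1 of them with a mean of at least 5 TPM, and 0 to 3 with 1 library left out. Called ligands numbered 0 with a mean of at least 5 TPM, with the block, with the block and correction, with the marker score and without the libraries low in Y-linked transcripts, 2 under median-ratio scaling, and 0 to 3 with 1 library left out. Called adhesion and signalling genes numbered 3 without a filter and after the length and GC correction, 5 under quantile normalization, 1 with the block and correction, 0 with the marker score and without the libraries low in Y-linked transcripts, and 1 to 9 with 1 library left out. Called engulfment genes numbered 0 without a filter, under either scaling, with the correction, the block, both, the marker score and without the libraries low in Y-linked transcripts, and 0 to 3 with 1 library left out. The share of all genes called moved as well. It was 3.69% without a filter, 22.2% with a mean of at least 5 TPM and 15.0% with a pseudocount of 0.1. Under median-ratio scaling it was 15.8%, after quantile normalization 12.4% and after the length and GC correction 8.9%. With the block it was 7.93%, with the block and correction 2.54%, and with 1 library left out 4.9% to 20.6%.

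Signs reversed for Spp1 under quantile normalization (0.00), without ZT20 replicate 3 (0.05) and without ZT8 replicate 3 (0.37), with a range of −0.55 to 0.37 over the libraries left out; for Ccn1 with the marker score (0.22), without ZT20 replicate 1 (0.13) and without ZT8 replicate 1 (0.04), with a range of −0.38 to 0.13; for Lamb1, Tln2, Zyx and Elmo2 after the length and GC correction (−0.26, −0.21, −0.06 and −0.11) and with the block added (−0.37, −0.19, −0.12 and −0.15); and with the marker score for Ilk (0.03), Zyx (−0.03) and Gas6 (−0.03). The cause was not tested for any of these changes. No library had a value far from the rest of its group among 32 genes checked at ZT20 (4 samples); groups of 3 were not checked. The unknown depth limits what can be said of Itga9, Lama5 and other genes near 1 TPM.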
